A study of Mus musculus with 12 samples.

Results

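The genes described here are 36 that carry glucose into the cell, break it down to lactate, export the lactate, or answer to low oxygen. They were chosen by symbol for what they encode, with earlier results of these data known. All 36 were found among the 16145 genes listed in the files: 20 glycolytic enzymes and their regulators, 6 genes for glucose carriers, lactate carriers and the kinases that close the pyruvate dehydrogenase gate, and 10 regulators or targets of the hypoxia response. RNA was sequenced from mouse bone marrow-derived macrophages, cells grown out of marrow for 7 days in α-MEM with serum and the macrophage growth factor M-CSF. There were 4 groups of 3 libraries. Wild-type (WT) cells received vehicle for 12 h, 15 µM hemin for 12 h, or 120 µM 4-OI for 15 h, and Irg1KO cells received vehicle for 12 h. 4-OI is 4-octyl itaconate, a cell-permeable ester of itaconate. Hemin is the oxidised iron form of heme. Irg1, listed as Acod1, encodes the enzyme that makes itaconate. No WT vehicle group at 15 h was given, so an effect of 4-OI and one of the longer time cannot be told apart. Whether the replicates were separate mice, separate cultures or repeat libraries is not stated in the labels, and p-values therefore cover only the spread between these libraries, which may be technical.

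Glycolysis turns glucose into pyruvate in the cytosol. Pyruvate then either enters mitochondria through pyruvate dehydrogenase, which the pyruvate dehydrogenase kinases switch off, or is reduced to lactate by lactate dehydrogenase and leaves the cell through monocarboxylate carriers. When oxygen is scarce, the prolyl hydroxylases that mark the transcription factor subunit HIF-1α for destruction stop working, and HIF-1 raises transcription of glucose carriers, most glycolytic enzymes and genes for vessel growth. Macrophages are known for raising glycolysis and HIF-1α after inflammatory stimulation.

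The libraries held 9405112 to 22390882 expected counts, estimated reads or fragments assigned to genes. Levels of a gene across libraries are given as CPM, counts scaled to a common library size with TMM factors. Levels of different genes are given as deposited FPKM, which divides by transcript length and to which the TMM factors were not applied. These factors were 1.033 to 1.05 in WT vehicle and 1.012 to 1.021 in the libraries labelled Irg1KO. They were 0.944 to 0.9495 with 4-OI and 0.993 to 1.003 with hemin. Macrophage markers were high in every group, with a sum over 9 markers of 22850 to 23560 CPM in WT vehicle, 25530 to 27260 CPM with 4-OI, 24030 to 26260 CPM with hemin and 22240 to 25230 CPM in the libraries labelled Irg1KO. Summed markers of B cells, T cells and erythroid cells were at most 0.295 CPM in any library, and those of dendritic cells at most 2.10 CPM. The targeted gene did not separate the genotypes by counts: Acod1 was at 27.5, 30.5 and 25.01 CPM in WT vehicle and at 21.7, 13.6 and 26.3 CPM in the libraries labelled Irg1KO, and these ranges overlapped (log2 fold change −0.48, edgeR adjusted p = 0.194, and −0.23 without the second of these libraries). On log2(FPKM + 1) Acod1 was lower in them (−0.71, limma adjusted p = 0.015), as it was in counts with no filter (−0.50, edgeR adjusted p = 4.38e-09). The sources used here do not give the deleted part of the gene, so its count may not check the label. The libraries labelled Irg1KO stood apart on the first principal component (52.8% of the variance) and the 4-OI libraries on the second (26.7%). Summed markers of fibroblasts and stroma were 1714 to 2111 CPM in WT vehicle, 1938 to 2137 CPM with 4-OI, 1559 to 2038 CPM with hemin and 10370 to 11640 CPM in the libraries labelled Irg1KO. In the libraries labelled Irg1KO 8 of 8 tested stromal markers rose against WT vehicle, where 23.5% of all tested genes rose. Col1a1 and Cxcl12 were among them, while Dcn and Lum were at or near 0 in every library. In bulk RNA, more cells of a type and more RNA per cell cannot be told apart.

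HIF-1 binds DNA at a short core, ACGTG or GCGTG. RefSeq promoter windows (build GRCm38.p6, 250 bases before to 50 after a transcript start) were found for 35 of the 36 genes, 51 windows in all, with none found for Ndrg1. At least 1 match on either strand was present in 40 of the 51 windows (78.4%, 32 genes) and in 43.8% of all 32851 windows of this length. The windows were not matched for base composition, and a match is a run of letters, not a binding site. The antioxidant element core TGACNNNGC, the motif of NRF2, matched 9.8% of these windows against 12.4% of all, and the E-box CACGTG matched 11.8% against 7.2%. Overlapping matches were each counted, so that every CACGTG holds 2 matches of the hypoxia core. The first listed windows of 4 genes are printed because their RNA behaved differently below: Slc2a1 and Pgk1 rose with 4-OI, Ldha did not pass the test in any comparison, and Slc2a6 fell with 4-OI and rose with hemin. Each is read 5′ to 3′ on the strand of the gene, and the capitals mark the hypoxia core on either strand (CACGT and CACGC are its reverse complements).
Slc2a1, chr4:119108495-119108794, + strand: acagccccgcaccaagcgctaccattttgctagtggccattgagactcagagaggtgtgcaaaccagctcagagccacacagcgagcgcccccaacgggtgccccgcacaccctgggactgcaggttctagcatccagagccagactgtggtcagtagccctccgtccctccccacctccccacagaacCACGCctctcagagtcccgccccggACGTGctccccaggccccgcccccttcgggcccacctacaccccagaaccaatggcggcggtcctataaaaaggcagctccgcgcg
Pgk1, chrX:106186850-106187149, + strand: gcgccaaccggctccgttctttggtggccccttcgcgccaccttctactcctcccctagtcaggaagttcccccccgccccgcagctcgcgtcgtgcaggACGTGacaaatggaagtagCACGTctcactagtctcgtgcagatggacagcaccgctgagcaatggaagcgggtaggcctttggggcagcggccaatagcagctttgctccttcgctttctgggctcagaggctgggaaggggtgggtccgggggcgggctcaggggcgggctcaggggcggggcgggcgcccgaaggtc
Ldha, chr7:46845554-46845853, + strand: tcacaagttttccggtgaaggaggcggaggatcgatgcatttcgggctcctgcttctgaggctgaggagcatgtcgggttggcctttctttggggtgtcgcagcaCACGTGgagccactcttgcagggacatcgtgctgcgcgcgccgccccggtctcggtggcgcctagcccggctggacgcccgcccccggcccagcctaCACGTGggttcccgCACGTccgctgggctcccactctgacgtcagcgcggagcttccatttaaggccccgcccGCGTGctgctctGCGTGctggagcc
Slc2a6, chr2:27027949-27028248, − strand: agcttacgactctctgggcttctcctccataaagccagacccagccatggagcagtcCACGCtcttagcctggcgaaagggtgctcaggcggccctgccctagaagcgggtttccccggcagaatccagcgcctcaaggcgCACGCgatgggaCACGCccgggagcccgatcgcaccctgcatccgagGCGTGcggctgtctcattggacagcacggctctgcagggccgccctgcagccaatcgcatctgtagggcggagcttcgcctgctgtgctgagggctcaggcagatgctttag
The Slc2a1 and Pgk1 windows held 2 matches each, the Slc2a6 window 4 and the Ldha window 7. The printed Ldha window holds 2 CACGTG sites, each counted as 2 matches. The second listed window of Ldha, not printed, held 2 matches.

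In WT vehicle cells the enzymes of the lower pathway were the most abundant of the 36. Gapdh, which oxidises glyceraldehyde phosphate, had a mean of 1758 FPKM and ranked 16 of all 16145 genes. Pyruvate kinase Pkm followed with 1104 FPKM, then aldolase Aldoa with 623, enolase Eno1 with 498 and phosphoglycerate kinase Pgk1 with 391 FPKM, and none of these ranges overlapped the next. Ldha (295 FPKM), Pgam1 (277 FPKM) and Tpi1 (266 FPKM) came next with overlapping ranges. Among the hexokinases, Hk3 had 170 FPKM, Hk2 31.5 and Hk1 28.5 FPKM. Hif1a stood at 43.0 FPKM. The glucose carrier Slc2a1 had 20.3 FPKM, and the carriers of lactate, Slc16a1 and Slc16a3, had overlapping ranges around 8.32 and 8.19 FPKM. At the bottom, Adm had 0.517 FPKM, and Eno2, Ankrd37 and Egln3 had under 0.15 FPKM on average.

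**Figure D1:**
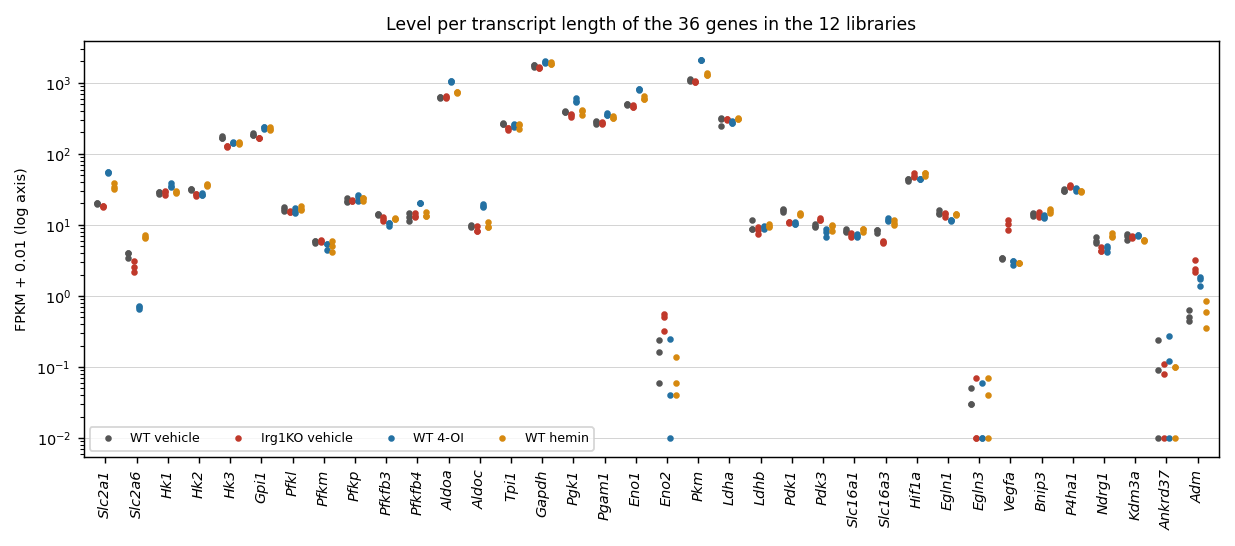
Level of each of the 36 genes in every library, as FPKM plus 0.01 on a log axis, with 1 point per library and colours for the 4 groups. Gapdh and Pkm lie at the top (1758 and 1104 FPKM in WT vehicle), and Egln3 and Ankrd37 lie at the floor of the plot in several libraries.

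Of the 36 genes, 34 had enough counts to be tested. Egln3 and Ankrd37 had at most 2 and 3 expected counts in any library. With 4-OI, 17 of the 34 rose and 5 fell against WT vehicle (edgeR quasi-likelihood test with Benjamini-Hochberg adjustment over 12148 genes, called below an adjusted p of 0.05), where 50.4% of all genes were called. With hemin 12 rose and 1 fell, where 17.2% of all genes were called. In the libraries labelled Irg1KO 6 rose and 10 fell, where 39.8% of all genes were called. Between 4-OI and hemin 15 were higher with 4-OI and 9 lower, against 42.3% called among all genes. The CPM of the groups did not overlap for 23 of the 34 with 4-OI, 17 with hemin, 19 in the libraries labelled Irg1KO and 26 between the agents, against 56.5%, 30.7%, 49.7% and 49.7% of all genes. A call with an absolute log2 fold change of at least 0.5 was made for 11, 2, 5 and 9 of the 34, against 21.4%, 3.56%, 17.4% and 16.4% of all genes. The median log2 fold change over the 34 was 0.14 with 4-OI, 0.11 with hemin and −0.06 in the libraries labelled Irg1KO, beside −0.0031, −0.00595 and −0.000335 over all genes. The comparisons with WT vehicle share its 3 libraries, so they are not independent of each other. On FPKM, tested with limma on log2(FPKM + 1), the median of all genes with 4-OI shifted to −0.105 and the call of all genes to 1743 higher and 4608 lower, from 3083 and 3043. The 34 genes then split into 13 higher and 9 lower with 4-OI, 10 and 3 with hemin (621 higher and 1422 lower over all genes, from 1152 and 940), and 10 and 10 between 4-OI and hemin (1726 and 3490, from 2500 and 2636).

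**Figure D2:**
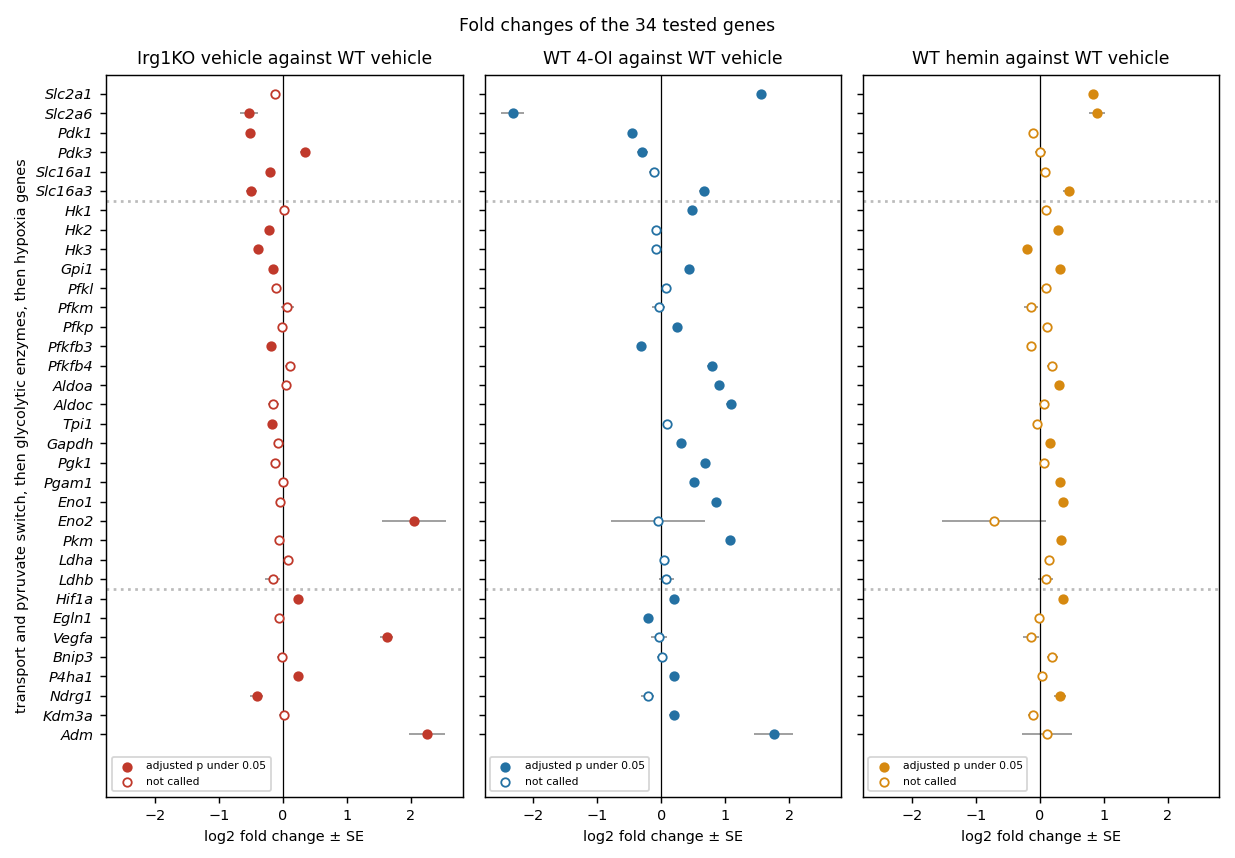
Log2 fold change against WT vehicle, with its standard error, for the 34 tested genes in the libraries labelled Irg1KO (left), with 4-OI (middle) and with hemin (right). Filled points have an adjusted p under 0.05. The middle panel spreads from −2.33 (Slc2a6) to 1.76 (Adm), and in the left panel Adm, Eno2 and Vegfa lie far to the right of the others.

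The glucose carriers Slc2a1 and Slc2a6 moved in opposite directions with 4-OI and both rose with hemin. Slc2a1 encodes the widely expressed carrier GLUT1 of the plasma membrane. Its level was 49.0, 49.2 and 47.2 CPM in WT vehicle, 144.7, 144.5 and 141.7 CPM with 4-OI, 79.8, 95.3 and 84.6 CPM with hemin, and 43.7, 44.9 and 44.9 CPM in the libraries labelled Irg1KO. All 3 libraries with 4-OI lay above all 3 with hemin, which lay above all others. Slc2a1 rose 2.96-fold with 4-OI (log2 fold change 1.56 ± 0.06 SE, adjusted p = 4.09e-23) and 1.79-fold with hemin (0.84 ± 0.06, adjusted p = 1.23e-13). It was 1.65-fold higher with 4-OI than with hemin (adjusted p = 1.58e-13). In the libraries labelled Irg1KO its log2 fold change was −0.13 ± 0.06, which did not pass the test (adjusted p = 0.103, but 0.0485 with RLE factors and 0.0495 on log2(FPKM + 0.1)).

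Slc2a6 encodes GLUT6, a carrier found mainly on internal membranes. It stood at 7.63, 7.78 and 6.65 CPM in WT vehicle, 1.53, 1.48 and 1.40 CPM with 4-OI, 13.2, 13.7 and 14.6 CPM with hemin, and 4.27, 5.11 and 6.08 CPM in the libraries labelled Irg1KO. No group overlapped another, with hemin highest and 4-OI lowest. It fell 5.01-fold with 4-OI (log2 fold change −2.33 ± 0.19, adjusted p = 2.48e-13), from counts of 76 to 180 per library in WT vehicle to 13 to 22. With hemin it rose 1.86-fold (0.90 ± 0.12, adjusted p = 5.67e-07). Set directly against hemin, 4-OI gave a 9.34-fold lower level (log2 fold change −3.22 ± 0.17, adjusted p = 8.25e-18). It also fell in the libraries labelled Irg1KO (−0.53 ± 0.14, adjusted p = 0.00181). On log2(FPKM + 1) the fall with 4-OI was −1.505, still past the threshold. Of the FPKM of both carriers, Slc2a6 made up 15.7% ± 0.8 (SD, n = 3) in WT vehicle, 16.4% ± 1.2 with hemin and 12.4% ± 1.8 in the libraries labelled Irg1KO, but 1.24% ± 0.04 with 4-OI. A further glucose carrier, Slc2a3 (GLUT3), had a mean of 3.42 FPKM in WT vehicle, and it is named here after its values were seen. It fell with 4-OI (−0.91 ± 0.13, adjusted p = 1.5e-07), in the libraries labelled Irg1KO (−0.46 ± 0.12, adjusted p = 0.00163) and with hemin (−0.36 ± 0.12, adjusted p = 0.0293), where the call held under 10 of 15 alternatives. Of the FPKM of all 3 carriers Slc2a6 made up 13.7% ± 0.7 in WT vehicle (SD, n = 3) and at most 1.24% in any 4-OI library.

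**Figure D3:**
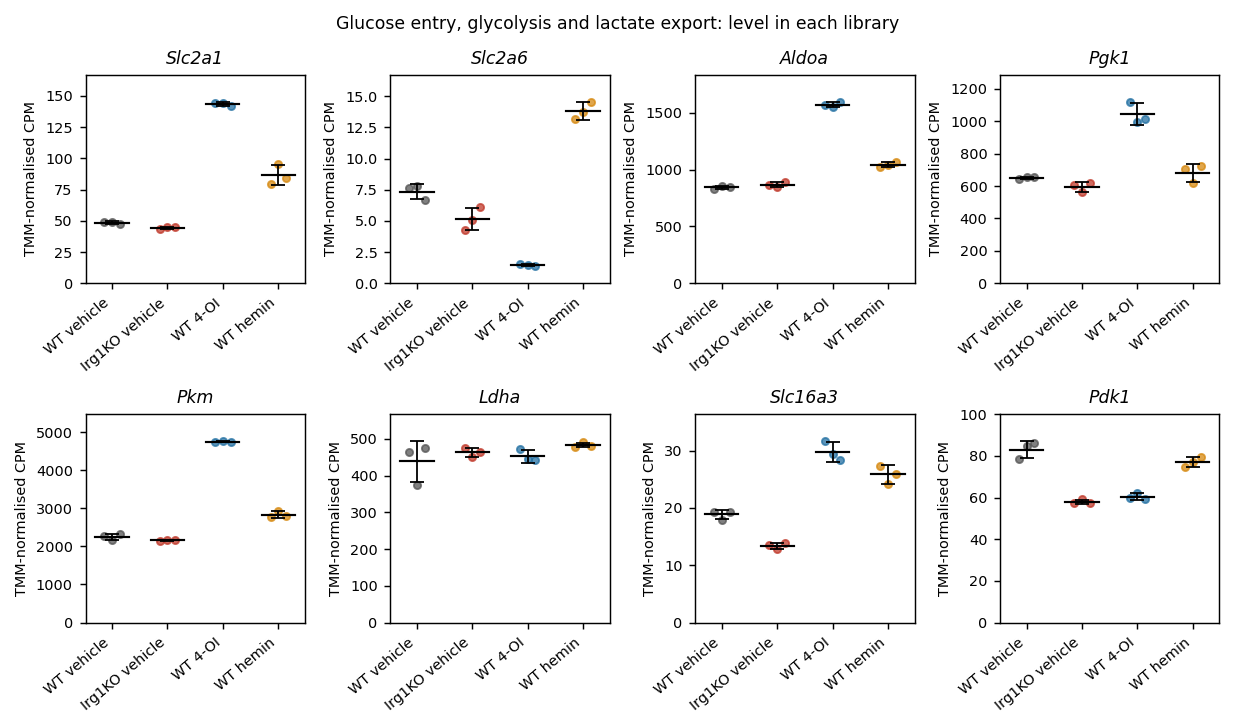
TMM-normalised CPM of 8 genes in each library (points), with the group mean and SD (bars), on axes that start at 0. The 4-OI libraries lie above all others for Slc2a1, Aldoa, Pgk1 and Pkm and below all others for Slc2a6, while Ldha lies between 374.5 and 490.8 CPM in all 12 libraries.

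Hexokinases trap glucose by phosphorylating it, and the dominant form here was Hk3. Hk3 stood at 492, 495 and 518 CPM in WT vehicle, 483, 460 and 473 CPM with 4-OI, 439, 453 and 424 CPM with hemin, and 371, 389 and 393 CPM in the libraries labelled Irg1KO. The lowest group was the libraries labelled Irg1KO, which fell by 0.38 on the log2 scale (SE 0.05, adjusted p = 7.98e-09), and Hk3 fell by 0.19 with hemin (SE 0.05, adjusted p = 0.00213). With 4-OI its log2 fold change was −0.09 (adjusted p = 0.115), which passed the test under 3 of the 15 alternatives. Hk1, which sits on the outer mitochondrial membrane, read 106, 111 and 104 CPM in WT vehicle, 147, 156 and 144 CPM with 4-OI, 110, 118.5 and 116 CPM with hemin, and 113, 111 and 102 CPM in the libraries labelled Irg1KO. Hk1 rose with 4-OI (0.48 ± 0.05, adjusted p = 4.74e-10), and it was higher with 4-OI than with hemin (0.38 ± 0.05, adjusted p = 1.74e-07). Hk2, the inducible form and a known HIF-1 target, read 162, 169 and 169 CPM in WT vehicle, 154, 154 and 167 CPM with 4-OI, 195, 202 and 209 CPM with hemin, and 137, 147 and 146 CPM in the libraries labelled Irg1KO. Hk2 thus rose with hemin (0.28 ± 0.05, adjusted p = 3.8e-05), fell in the libraries labelled Irg1KO (−0.22 ± 0.05, adjusted p = 0.000382) and had a log2 fold change of −0.08 with 4-OI (adjusted p = 0.2), which passed the test on log2(FPKM + 1) (−0.21, limma adjusted p = 0.00199). Hk3 held 73.9% ± 0.8 of the FPKM of the 3 hexokinases in WT vehicle and 68.4% ± 1.1 with hemin (SD, n = 3), where the share of Hk2 was 13.7% ± 0.3 and 17.6% ± 0.8.

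Gpi1, which interconverts glucose and fructose phosphates, rose with 4-OI (mean 511 to 691 CPM, log2 fold change 0.43 ± 0.05, adjusted p = 4.79e-10) and with hemin (639 CPM, 0.32 ± 0.05, adjusted p = 2.01e-06), and fell slightly in the libraries labelled Irg1KO (460 CPM, −0.15 ± 0.05, adjusted p = 0.00812). Phosphofructokinase catalyses the committing step and is encoded by 3 genes. Pfkp read 75.2, 74.8 and 83.9 CPM in WT vehicle, 95.4, 94.9 and 85.8 CPM with 4-OI, 86.2, 81.1 and 85.1 CPM with hemin, and 73.7, 77.4 and 78.7 CPM in the libraries labelled Irg1KO. It rose with 4-OI (0.25 ± 0.06, adjusted p = 0.000354), and this call was lost on FPKM. Pfkl stood between 54.8 and 68.5 CPM and Pfkm between 11.6 and 16.7 CPM over all 12 libraries, and neither passed the test in any of the 4 comparisons.

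The PFKFB enzymes make and degrade the strongest allosteric activator of phosphofructokinase, and of their genes Pfkfb4 rose and Pfkfb3 fell with 4-OI. Pfkfb4 read 35.1, 40.6 and 46.3 CPM in WT vehicle, 70.0, 69.9 and 69.6 CPM with 4-OI, 43.3, 49.9 and 44.5 CPM with hemin, and 42.4, 41.96 and 47.0 CPM in the libraries labelled Irg1KO. Only the 4-OI libraries stood clear of WT vehicle, with a log2 fold change of 0.79 ± 0.07 (adjusted p = 4.68e-11). With hemin the value was 0.19 (adjusted p = 0.0887), and it passed the test without the third WT vehicle library (adjusted p = 0.0115) or with unfiltered counts (adjusted p = 0.0462). Pfkfb3 read 60.9, 59.7 and 60.4 CPM in WT vehicle, 45.9, 49.6 and 50.5 CPM with 4-OI, 54.6, 55.3 and 54.2 CPM with hemin, and 50.3, 56.3 and 53.0 CPM in the libraries labelled Irg1KO. It fell with 4-OI (−0.31 ± 0.06, adjusted p = 4.32e-05) and in the libraries labelled Irg1KO (−0.18 ± 0.06, adjusted p = 0.0144, but 0.0987 without the first library of that group). Of the FPKM of both, Pfkfb4 made up 47.7% ± 3.6 in WT vehicle and 66.0% ± 1.3 with 4-OI (SD, n = 3), without overlap. Among the other PFKFB genes, named after their values were seen, Pfkfb2 (mean 26.7 CPM in WT vehicle) had a log2 fold change of 0.16 with 4-OI (adjusted p = 0.0919), and Pfkfb1 (2.45 CPM) fell (−0.63 ± 0.24, adjusted p = 0.0258, held under 11 of 15 alternatives). Of the FPKM of all 4 genes Pfkfb4 made up 39.5% ± 4.0 in WT vehicle and 56.6% ± 1.1 with 4-OI.

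**Figure D4:**
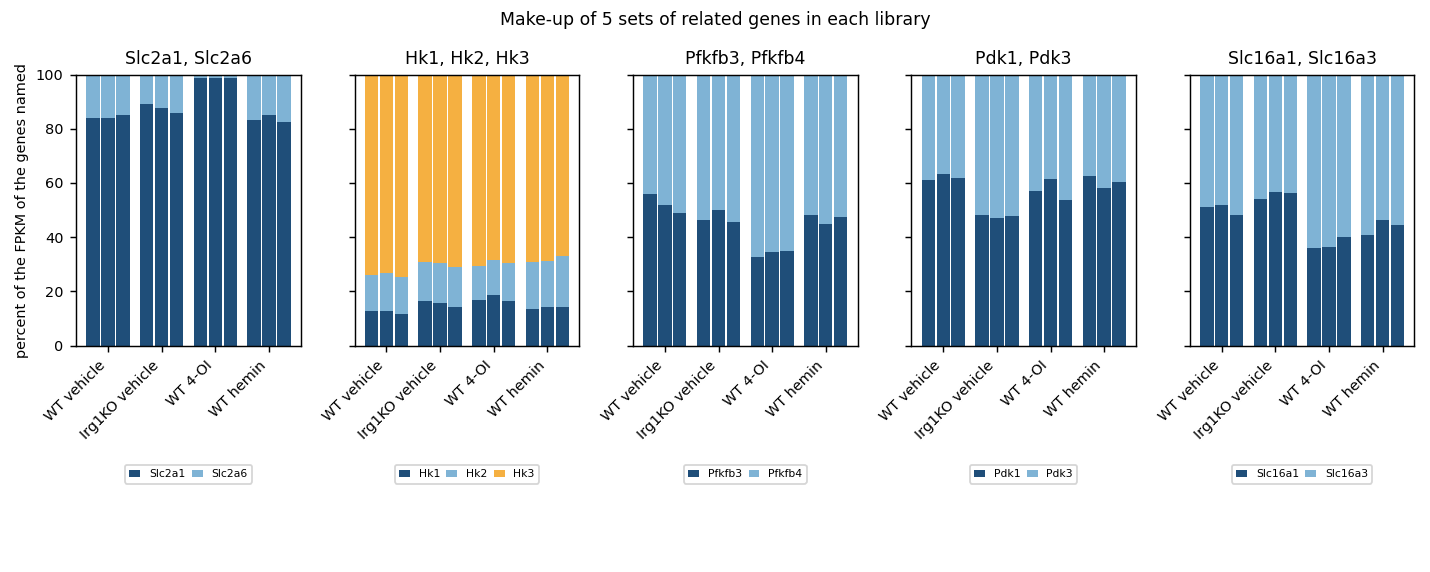
Make-up of 5 sets of related genes in each library, as percent of the summed FPKM of the genes named above each panel, with 1 bar per library and 3 bars per group. With 4-OI Slc2a6 is at 1.24% of its pair with Slc2a1, Pfkfb4 at 66.0% of its pair with Pfkfb3, and Slc16a3 at 62.6% of its pair with Slc16a1, and Pdk3 is at 52.2% of its pair with Pdk1 in the libraries labelled Irg1KO.

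From aldolase to pyruvate kinase, each enzyme above 200 FPKM in WT vehicle except Tpi1 and Ldha rose with 4-OI, and these 6 were all higher with 4-OI than with hemin. Over the 20 glycolytic enzymes and regulators, 11 rose and 1 fell with 4-OI, 7 rose and 1 fell with hemin, and 1 rose and 5 fell in the libraries labelled Irg1KO. Of all tested genes, 25.4% rose and 25.0% fell with 4-OI, 9.48% and 7.74% with hemin, and 23.5% and 16.3% in the libraries labelled Irg1KO. Summed over the 20 genes, CPM was 9436 to 9819 in WT vehicle, 14850 to 14940 with 4-OI, 10990 to 11420 with hemin and 9028 to 9288 in the libraries labelled Irg1KO, with no overlap between any groups. As a share of all expected counts before scaling, these genes took 0.985 to 1.02%, 1.405 to 1.411%, 1.10 to 1.14% and 0.920 to 0.940% in the same order. Summed FPKM gave the same order, with means of 5723, 7953, 6380 and 5381. These sums are weighted to the most abundant genes: Pkm alone went from a mean of 2256 CPM in WT vehicle to 4752 CPM with 4-OI. With 4-OI 8 of the 20 genes were not called. The macrophage marker sum also lay above WT vehicle with both agents. Of the 9 markers, 3 rose and 2 fell with 4-OI, and 4 rose and 1 fell with hemin. Their part in the result was not tested.

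Pkm encodes pyruvate kinase, the last step of glycolysis. It read 2267, 2171 and 2330 CPM in WT vehicle, 4751, 4764 and 4741 CPM with 4-OI, 2778, 2931 and 2792 CPM with hemin, and 2145, 2174 and 2154 CPM in the libraries labelled Irg1KO. The 4-OI libraries lay far above all others and the hemin libraries above both vehicle groups. The rise was 2.11-fold with 4-OI (log2 fold change 1.07 ± 0.05, adjusted p = 4.51e-21) and 1.26-fold with hemin (0.33 ± 0.05, adjusted p = 1.08e-06), and 4-OI exceeded hemin by 0.75 ± 0.05 on the log2 scale (adjusted p = 4.1e-16). In the libraries labelled Irg1KO the log2 fold change was −0.06 (adjusted p = 0.28). The counts combine all transcripts of a gene, so the M1 and M2 forms of the enzyme were not separated.

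Aldolase splits the hexose into 3-carbon pieces, and both of its genes rose with 4-OI. Aldoa read 832, 852 and 846 CPM in WT vehicle, 1574, 1548 and 1598 CPM with 4-OI, 1021, 1045 and 1066 CPM with hemin, and 864, 848 and 892 CPM in the libraries labelled Irg1KO. Again the 4-OI libraries lay highest and the hemin libraries next. Its log2 fold change was 0.90 ± 0.04 with 4-OI (adjusted p = 3.1e-19), 0.31 ± 0.04 with hemin (adjusted p = 2e-06) and 0.04 in the libraries labelled Irg1KO (adjusted p = 0.495). Aldoc, the brain-type aldolase, read 23.4, 25.2 and 23.9 CPM in WT vehicle, 54.2, 49.2 and 51.4 CPM with 4-OI, 28.5, 24.1 and 24.1 CPM with hemin, and 21.0, 20.6 and 24.2 CPM in the libraries labelled Irg1KO. It rose with 4-OI by a log2 fold change of 1.09 ± 0.08 (adjusted p = 6.82e-15), while with hemin the value was 0.07 (adjusted p = 0.656). Aldoa held 98.2 to 98.8% of the aldolase FPKM in all 12 libraries.

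Pgk1, which makes the first ATP of the pathway, read 641, 654 and 657 CPM in WT vehicle, 1121, 995 and 1014 CPM with 4-OI, 704, 619 and 724 CPM with hemin, and 604, 561 and 621 CPM in the libraries labelled Irg1KO. Its level with 4-OI lay clear of all other libraries (0.68 ± 0.05, adjusted p = 9.77e-13), whereas the hemin libraries lay on both sides of WT vehicle (0.07, adjusted p = 0.456). The libraries labelled Irg1KO lay below all 3 WT vehicle libraries, with a log2 fold change of −0.13 that missed the threshold (adjusted p = 0.0593). It passed under 7 of the 15 alternatives, and the adjusted p over all 15 ran from 0.00715 with no filter on low counts to 0.26. The mutase Pgam1 read 480, 446 and 466.5 CPM in WT vehicle, 651, 644 and 694 CPM with 4-OI, 561, 598 and 570 CPM with hemin, and 456, 461 and 481 CPM in the libraries labelled Irg1KO. Pgam1 rose with both agents, by 0.51 ± 0.05 with 4-OI (adjusted p = 1.03e-11) and 0.31 ± 0.05 with hemin (adjusted p = 4.47e-06). Gapdh rose by 0.31 ± 0.05 with 4-OI (adjusted p = 8.66e-07) and 0.17 ± 0.05 with hemin (adjusted p = 0.0106, but 0.0881 without the first WT vehicle library, 0.0665 without the second hemin library and 0.144 on log2(FPKM + 1) with limma), from a mean of 2242 CPM in WT vehicle to 2782 and 2520 CPM. The difference between the agents (0.14 ± 0.05, adjusted p = 0.0146) was lost without the second 4-OI library (adjusted p = 0.062) or the first hemin library (adjusted p = 0.0636), and on log2(FPKM + 1) neither it nor that of Pgam1 passed the test (limma adjusted p = 0.336 and 0.0524). Its log2 fold change in the libraries labelled Irg1KO was −0.07 (adjusted p = 0.248). Tpi1, which interconverts the products of aldolase, fell in the libraries labelled Irg1KO (mean 299 to 264 CPM, −0.18 ± 0.05, adjusted p = 0.00543) and did not pass the test with 4-OI or hemin.

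Enolase makes phosphoenolpyruvate. Eno1 read 794.5, 851 and 828 CPM in WT vehicle, 1510, 1480 and 1467 CPM with 4-OI, 1031, 1113 and 1031 CPM with hemin, and 780, 778 and 831.5 CPM in the libraries labelled Irg1KO. It rose with 4-OI (0.85 ± 0.05, adjusted p = 1.03e-17) and with hemin (0.36 ± 0.05, adjusted p = 3.41e-07), and 4-OI exceeded hemin by 0.49 ± 0.05 (adjusted p = 5.99e-11). Eno2, the neuronal enolase, was close to absent, with 3 to 6 expected counts per library in WT vehicle and 11, 24 and 17 in the libraries labelled Irg1KO. The groups did not overlap, and the call in the libraries labelled Irg1KO (2.06 ± 0.50, adjusted p = 0.00115) rests on these few reads. On log2(FPKM + 1) the same difference was 0.34. The expected counts of Eno1 were not whole in any library, and those of Gapdh, Pgam1, Pgk1 and Pkm were whole in 1, 1, 3 and 6 of 12 libraries. Whether reads of near-identical copies were divided among these genes was not tested, and their levels are uncertain to that extent.

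Ldha, the muscle-type lactate dehydrogenase and a textbook HIF-1 target, did not follow the enzymes before it. It read 464.5, 374.5 and 476 CPM in WT vehicle, 473, 444.5 and 441 CPM with 4-OI, 478.5, 491 and 481 CPM with hemin, and 475, 450 and 465 CPM in the libraries labelled Irg1KO. The second WT vehicle library was the lowest of the 12 and the 4-OI libraries overlapped WT vehicle. Its log2 fold change was 0.05 ± 0.06 with 4-OI (adjusted p = 0.536) and 0.14 ± 0.06 with hemin (adjusted p = 0.124). Without the second WT vehicle library the 4-OI value was −0.053, and without the third the hemin value was 0.21 and passed the test (adjusted p = 0.0222), as it did with unfiltered counts (adjusted p = 0.0284). Ldhb, the heart type, read 10.3, 10.2 and 13.6 CPM in WT vehicle, 12.1, 10.9 and 12.5 CPM with 4-OI, 12.4, 11.4 and 11.9 CPM with hemin, and 10.1, 10.8 and 8.77 CPM in the libraries labelled Irg1KO, and passed the test in no comparison. Ldha made up 96.5 to 97.7% of the FPKM of both genes in every library.

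Lactate leaves through the carriers Slc16a1 (MCT1) and Slc16a3 (MCT4), of which MCT4 is the form known for export from glycolytic cells. Slc16a3 read 19.4, 17.9 and 19.3 CPM in WT vehicle, 31.7, 29.4 and 28.3 CPM with 4-OI, 27.4, 24.2 and 26.0 CPM with hemin, and 13.5, 12.8 and 13.8 CPM in the libraries labelled Irg1KO. The 4 groups did not overlap, with 4-OI highest and the libraries labelled Irg1KO lowest. Slc16a3 rose with 4-OI (0.67 ± 0.08, adjusted p = 8.2e-09) and with hemin (0.46 ± 0.08, adjusted p = 8.8e-05) and fell in the libraries labelled Irg1KO (−0.49 ± 0.09, adjusted p = 2.01e-05). Slc16a1 read 37.0, 35.3 and 32.9 CPM in WT vehicle, 32.5, 30.8 and 34.5 CPM with 4-OI, 35.3, 38.4 and 38.2 CPM with hemin, and 29.1, 30.5 and 32.6 CPM in the libraries labelled Irg1KO. It fell in the libraries labelled Irg1KO (−0.20 ± 0.07, adjusted p = 0.0262), a call lost without the first or second library of either group (adjusted p 0.0547 to 0.12), and its value with 4-OI was −0.12 (adjusted p = 0.188), which passed the test on log2(FPKM + 1) (−0.22, limma adjusted p = 0.0108). Of the FPKM of this pair, Slc16a3 made up 49.6% ± 1.9 in WT vehicle, 62.6% ± 2.2 with 4-OI, 56.0% ± 2.8 with hemin and 44.4% ± 1.4 in the libraries labelled Irg1KO (SD, n = 3). Slc16a7 (MCT2), a further carrier of this family named after its values were seen, had a mean of 10.9 FPKM in WT vehicle. It fell with 4-OI (−0.45 ± 0.08, adjusted p = 5.32e-06) and in the libraries labelled Irg1KO (−0.18 ± 0.07, adjusted p = 0.0464, held under 10 of 15 alternatives), and its value with hemin was −0.14 (adjusted p = 0.218). Of the FPKM of all 3 carriers Slc16a3 made up 29.8% ± 1.0 in WT vehicle, 44.8% ± 2.6 with 4-OI, 36.9% ± 1.2 with hemin and 26.2% ± 0.6 in the libraries labelled Irg1KO.

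Pyruvate dehydrogenase kinases hold pyruvate back from mitochondria, and Pdk1 is a known HIF-1 target. Pdk1 read 78.4, 84.8 and 86.0 CPM in WT vehicle, 59.7, 62.3 and 59.3 CPM with 4-OI, 74.6, 77.1 and 79.3 CPM with hemin, and 57.5, 59.1 and 57.2 CPM in the libraries labelled Irg1KO. The 4-OI libraries and those labelled Irg1KO lay below every WT vehicle library, and the hemin libraries overlapped them. Pdk1 fell in the libraries labelled Irg1KO (−0.52 ± 0.06, adjusted p = 6.1e-10) and with 4-OI (−0.46 ± 0.06, adjusted p = 1.1e-08), where Pkm, Pgk1 and Slc2a1 rose. Pdk3 read 24.8, 24.6 and 25.45 CPM in WT vehicle, 21.3, 17.8 and 22.3 CPM with 4-OI, 22.9, 26.0 and 26.1 CPM with hemin, and 29.6, 33.7 and 31.4 CPM in the libraries labelled Irg1KO. It moved opposite to Pdk1 in the libraries labelled Irg1KO, where it rose (0.34 ± 0.08, adjusted p = 0.000616), and with Pdk1 under 4-OI, where it fell (−0.30 ± 0.09, adjusted p = 0.00441). That last call was lost without the second 4-OI library (adjusted p = 0.0903). The Pdk3 share of the FPKM of both was 38.0% ± 1.1 in WT vehicle and 52.2% ± 0.5 in the libraries labelled Irg1KO (SD, n = 3). By CPM these mean shares were 23.1% and 35.2%. A further kinase gene, Pdk2, named after its values were seen, rose in the libraries labelled Irg1KO (0.47 ± 0.18, adjusted p = 0.0316, held under 8 of 15 alternatives). Of the FPKM of all 3 kinase genes Pdk3 made up 35.6% ± 1.3 in WT vehicle and 47.1% ± 0.5 in those libraries.

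Hif1a, which encodes the oxygen-regulated subunit of HIF-1 and is controlled mainly after translation, rose modestly in all 3 comparisons with WT vehicle. Its mean was 177 CPM in WT vehicle, 202 CPM with 4-OI, 228 CPM with hemin and 209 CPM in the libraries labelled Irg1KO. The log2 fold changes were 0.19 ± 0.05 (adjusted p = 0.00156), 0.36 ± 0.05 (adjusted p = 8.39e-07) and 0.24 ± 0.05 (adjusted p = 0.000141) in that order, and the first was lost on FPKM. Egln1, the main prolyl hydroxylase that marks HIF-1α, fell with 4-OI (mean 49.4 to 42.7 CPM, −0.21 ± 0.07, adjusted p = 0.0084), a call lost without the third WT vehicle library (adjusted p = 0.0681). Of the 8 tested hypoxia genes, 4 rose and 1 fell with 4-OI, 2 rose with hemin, and 4 rose and 1 fell in the libraries labelled Irg1KO, where 50.4%, 17.2% and 39.8% of all genes were called. Bnip3, a mitophagy receptor, passed the test in none of the comparisons, with 20.8 to 27.9 CPM over the 12 libraries. P4ha1, a collagen prolyl hydroxylase, rose with 4-OI (0.20 ± 0.05, adjusted p = 0.000943) and in the libraries labelled Irg1KO (0.24 ± 0.05, adjusted p = 0.000133). Kdm3a, a histone demethylase, rose with 4-OI (0.20 ± 0.07, adjusted p = 0.0205, but 0.128 without the third WT vehicle library, 0.0653 without the second 4-OI library and 0.0535 with upper-quartile factors). On FPKM neither P4ha1 nor Kdm3a passed the test with 4-OI.

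Ndrg1, a stress-response gene raised by hypoxia in many cell types, read 14.9, 16.0 and 18.4 CPM in WT vehicle, 12.5, 15.2 and 14.4 CPM with 4-OI, 19.5, 21.9 and 19.3 CPM with hemin, and 11.7, 11.8 and 13.4 CPM in the libraries labelled Irg1KO. The hemin libraries were the highest and rose against WT vehicle (0.32 ± 0.10, adjusted p = 0.0205), and those labelled Irg1KO fell (−0.41 ± 0.10, adjusted p = 0.00137). The hemin call was lost without the first or second WT vehicle library (adjusted p = 0.121 and 0.0642) or the second hemin library (adjusted p = 0.15), with DESeq2 (adjusted p = 0.0627) and on FPKM with either pseudocount (limma adjusted p = 0.121 and 0.129), 6 of the 15 alternatives. With 4-OI the value was −0.21 (adjusted p = 0.0854). It passed under 5 of the 15, which were leaving out the first WT vehicle library (adjusted p = 0.0458) or the second 4-OI library (adjusted p = 0.0492), upper-quartile factors (adjusted p = 0.047) and FPKM with either pseudocount (limma adjusted p = 0.00763 and 0.00741). Ndrg1 was 1.44-fold lower with 4-OI than with hemin (adjusted p = 7.24e-05).

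Vegfa, the main growth factor for blood vessels, rose in the libraries labelled Irg1KO and did not pass the test with either agent. It read 10.3, 10.9 and 10.8 CPM in WT vehicle, 33.0, 37.4 and 27.2 CPM in the libraries labelled Irg1KO, 10.7, 10.7 and 9.45 CPM with 4-OI, and 9.86, 9.44 and 9.81 CPM with hemin. The libraries labelled Irg1KO stood clear of all 9 others. The rise was 3.08-fold (1.62 ± 0.10, adjusted p = 1.81e-16), and the values with 4-OI and hemin were −0.04 (adjusted p = 0.826) and −0.13 (adjusted p = 0.519). Adm encodes adrenomedullin, a vasodilator peptide. It read 0.596, 0.778 and 0.525 CPM in WT vehicle, 3.98, 2.73 and 2.92 CPM in the libraries labelled Irg1KO, 2.46, 2.35 and 1.83 CPM with 4-OI, and 1.06, 0.738 and 0.439 CPM with hemin. It rose in the libraries labelled Irg1KO (2.26 ± 0.28, adjusted p = 1.91e-08) and with 4-OI (1.76 ± 0.31, adjusted p = 8.57e-06), from counts of 6 to 18 per library in WT vehicle. On log2(FPKM + 1) these differences were 1.23 and 0.79.

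**Figure D5:**
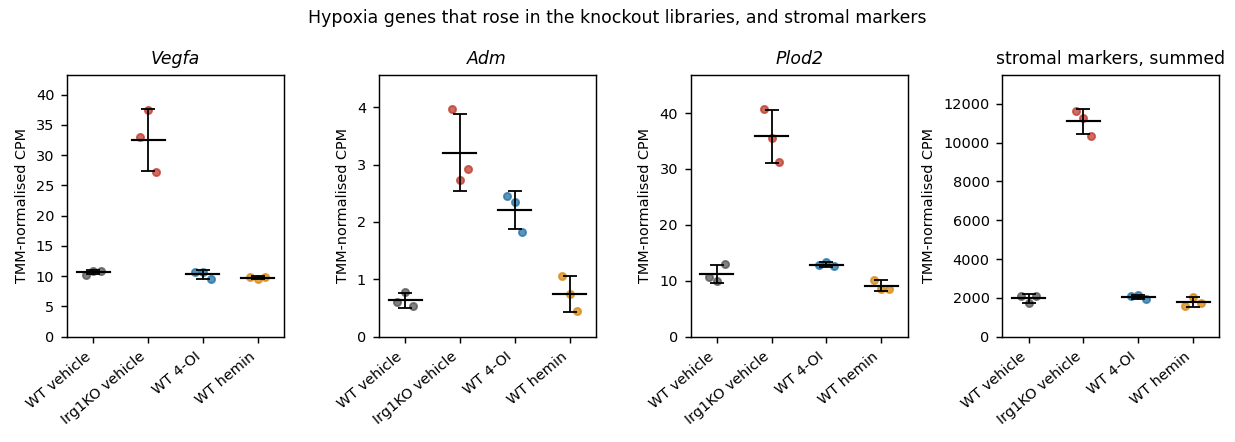
TMM-normalised CPM of Vegfa, Adm and Plod2 and of the summed fibroblast and stroma markers in each library (points), with the group mean and SD (bars). In all 4 panels the libraries labelled Irg1KO lie highest, at 10370 to 11640 CPM for the stromal sum against 1714 to 2111 CPM in WT vehicle.

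Among 45 further genes of these pathways, 37 were in the files and 34 were tested. In the libraries labelled Irg1KO 8 rose and 7 fell, where 23.5% of all genes rose and 16.3% fell. Lox, which cross-links collagen, read 136.5, 130 and 148 CPM in WT vehicle and 862, 853 and 723 CPM in the libraries labelled Irg1KO (2.56 ± 0.06, adjusted p = 9.26e-23). Plod2, a collagen lysyl hydroxylase, went from a mean of 11.2 to 35.8 CPM (1.71 ± 0.10, adjusted p = 8.08e-17). Ddit4, an mTOR inhibitor, rose by 1.88 ± 0.20 on the log2 scale (adjusted p = 8.65e-10), P4ha2 by 0.67 ± 0.09 (adjusted p = 1.51e-07) and Epas1, the HIF-2α gene, by 0.55 ± 0.07 (adjusted p = 2.12e-08). The 7 that fell, listed after their values were seen, were Slc2a3, Pgm2, Eno3, Slc16a7, Hif1an, Car9 and Zfp395, with log2 fold changes between −0.46 and −0.18. Fibroblasts also express Lox, Plod2, P4ha2 and Vegfa. The stromal markers rose with a median log2 fold change of 2.50 in the same libraries, and their part in these results was not tested. In these libraries 5 of the 20 glycolytic enzymes fell and Eno2 rose.

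With 4-OI, 14 of the 34 further genes rose and 7 fell, where 25.4% of all genes rose and 25.0% fell. Angptl4, a secreted inhibitor of lipoprotein lipase, read 2.62, 2.47 and 2.27 CPM in WT vehicle, 19.8, 19.3 and 18.6 CPM with 4-OI and 2.33, 2.51 and 2.56 CPM with hemin. The 4-OI libraries stood alone, with a 7.77-fold rise (2.96 ± 0.14, adjusted p = 2.91e-20) and a 7.74-fold higher level than with hemin (adjusted p = 6.25e-19). Pgm1, which links glycogen to glycolysis, rose by 0.79 ± 0.06 (adjusted p = 2.47e-13). Mpc1, a subunit of the mitochondrial pyruvate carrier, rose from a mean of 70.6 to 104 CPM (0.55 ± 0.06, adjusted p = 6.07e-10). Vhl, which targets hydroxylated HIF-1α for destruction, rose by 0.73 ± 0.08 (adjusted p = 8.17e-10). The muscle mutase Pgam2 fell from a mean of 14.7 to 6.06 CPM (−1.30 ± 0.13, adjusted p = 1.61e-10). Beside these, 2 of 4 tested neutrophil markers rose with 4-OI, S100a8 and Mmp8. S100a9 (0.34, adjusted p = 0.241) and Ltf (−0.24, adjusted p = 0.654) did not pass the test, and Mpo, Elane and Camp were at or near 0. The neutrophil marker sum went from 81.9 to 92.1 CPM in WT vehicle to 336.6 to 358 CPM. Most of it was Mmp8, with a mean of 79.5 CPM in WT vehicle and 313 CPM with 4-OI. The endothelial marker sum was 35.6 to 40.04 CPM in WT vehicle and 8.67 to 9.77 CPM with 4-OI. Of 4 tested endothelial markers 2 fell, Kdr (mean 28.6 to 4.98 CPM, −2.52 ± 0.11, adjusted p = 2.81e-21) and Cdh5 (−1.45 ± 0.20, adjusted p = 1.18e-07). Kdr held most of the endothelial sum in WT vehicle. Pecam1 (0.13, adjusted p = 0.766) and Vwf (−0.67, adjusted p = 0.0575, uncalled under 12 of 15 alternatives) did not pass the test. The part of these cell types in the results was not tested.

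With hemin 3 of the 34 further genes rose and 5 fell, where 9.48% of all genes rose and 7.74% fell. Tigar, a phosphatase that slows glycolysis, rose from a mean of 31.5 to 40.99 CPM (0.37 ± 0.07, adjusted p = 0.00015), Ero1a by 0.20 ± 0.05 (adjusted p = 0.00929) and Vhl by 0.27 ± 0.08 (adjusted p = 0.0194). The Ero1a call was lost without the third WT vehicle library (adjusted p = 0.0603) or the first hemin library (adjusted p = 0.0635), the Vhl call without the third WT vehicle library (adjusted p = 0.0649) or the second hemin library (adjusted p = 0.135), and both on FPKM. The Vhl call was also lost with DESeq2 (adjusted p = 0.0508). Bhlhe40, a transcriptional repressor, fell by 0.48 (SE 0.09, adjusted p = 0.00017), Pgam2 by 0.63 (SE 0.12, adjusted p = 0.000219) and Epas1 by 0.36 (SE 0.08, adjusted p = 0.000579). Beside these changes the endothelial marker sum went from 35.6 to 40.04 CPM in WT vehicle to 17.04 to 18.8 CPM with hemin. Of 4 tested endothelial markers 1 fell, Kdr (mean 28.6 to 11.06 CPM, −1.38 ± 0.09, adjusted p = 2.94e-14), which held most of that sum. Tek was at or near 0 in every library, and the part of these cells in the results was not tested. Between the agents, 13 further genes were higher with 4-OI and 6 lower, against 20.6% and 21.7% of all genes. Among those with the lowest adjusted p, besides Angptl4, were Pgm1 (0.69 ± 0.06, adjusted p = 2.3e-11), Mpc1 (0.46 ± 0.06, adjusted p = 8.21e-08), the mitophagy receptor Bnip3l (0.42 ± 0.06, adjusted p = 1.58e-06) and Vhl (0.46 ± 0.08, adjusted p = 1.51e-05), all higher with 4-OI.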

How the data were processed

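RNA-seq was done on 12 libraries of mouse macrophages, 1 deposited file each. The submitters' processing notes name RSEM, Bowtie2, StringTie and HISAT2 and the build GRCm39 (mm39). Versions and roles are not given in the sources used here. The values are deposited expected counts (90.62 to 92.03% whole per library, within 0.005) and deposited FPKM, per the file headers. Transcript lengths in the files were not used in tests.

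Expected counts were rounded and tested in R 4.3.3 with edgeR 4.0.16: filterByExpr, TMM, robust quasi-likelihood F test, all 12 libraries in 1 fit with a coefficient per group, Benjamini-Hochberg over 12148 genes. Standard errors are |log2 fold change|/√F. Between replicates the chi-square of the counts was 2.36 to 4.84 per degree of freedom. The procedure was tested on simulated data. Alternatives used limma 3.58.1, DESeq2 1.42.0, other scalings and filters, a replicate block, 2-group fits and leaving out each library.

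The 36 genes, the further genes and the marker lists were chosen with earlier results of these data known. Values per library are given for genes called with an absolute log2 fold change of at least 0.5 in any comparison and for families described together; of the further genes, at most 6 per comparison were named, by adjusted p, and 1 that the rule selects is not reported here.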

Additional observations from a re-analysis of the deposited data

How the results depend on the processing

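Every total of genes called in either direction stayed within 1.5 times its value under all 15 alternatives, but counts by direction did not: on log2(FPKM + 1) the genes called went to 1743 higher and 4608 lower with 4-OI (from 3083 and 3043) and 621 and 1422 with hemin (from 1152 and 940), and the members called lower from 5 to 9 and from 1 to 3. The number of the 34 genes called was 14 to 18 in the libraries labelled Irg1KO when each library was left out in turn, 20 to 23 with 4-OI, 11 to 15 with hemin and 18 to 25 between the agents, and the number of all genes called was 4213 to 4586, 5393 to 5794, 1537 to 2086 and 4392 to 4749. All called members kept their sign under the 15 alternatives; the call itself held in all of them for 14 of 16, 16 of 22, 11 of 13 and 15 of 24 genes in the same order. Those lost at least 1 time were Pfkfb3 and Slc16a1 in the libraries labelled Irg1KO, Pfkp, Hif1a, P4ha1, Kdm3a, Pdk3 and Egln1 with 4-OI, Gapdh and Ndrg1 with hemin, and Pfkfb3, Tpi1, Gapdh, Pgam1, Pdk3, Slc16a1, Slc16a3, Egln1 and P4ha1 between the agents. Of member values that had not passed the test, 6 of 18, 8 of 12, 6 of 21 and 4 of 10 changed sign under at least 1 alternative. Among those printed they were Ldha with 4-OI (−0.053 to 0.114 with each library left out, −0.086 on log2(FPKM + 1) and −0.087 on log2(FPKM + 0.1)), Vegfa with 4-OI (−0.069 to 0.010) and Aldoc with hemin (−0.0046 to 0.108). The cause was not tested. Deviations of same-numbered replicates from their group means had correlations of −0.0787 to 0.0666 over the tested genes. Count noise can hide a weak shared effect there, so these values do not settle whether the numbers pair the libraries. With a replicate block 4879, 6156, 2159 and 5181 genes and 17, 22, 13 and 25 of the 34 were called. Depth limits Eno2, Adm, Egln3 and Ankrd37.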
